A study of Mus musculus with 4 samples.

Results

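The collagen genes were described in RNA sequencing of mouse embryonic fibroblasts (MEFs) that lacked Dnmt3l (Dnmt3l-KO, 2 libraries) or were wild type (WT, 2 libraries). Members were chosen by symbol: every gene whose RefSeq symbol reads Col, a number, a, and a number was taken, whatever its values. The rule found 44 of the 36846 symbols in the deposited table, with 245 of its 116415 transcripts. Of these 44 genes, 38 passed edgeR's filter on low counts, where 14760 genes passed in all. Both genotypes were C57BL/6 MEF lines at passage 4, kept in DMEM with 10% FBS, and all came from embryos of day 13.5 to 14.5 whose parents were both Dnmt3l heterozygotes (Dnmt3l+/-). Dnmt3l encodes a partner of the DNA methyltransferases that set new methylation, and has no such activity of its own. The study looked in these cells for genes that might account for the better outcome of embryos cloned from Dnmt3l-KO donor cells. Nothing in the labels says how many embryos or lines the libraries of a genotype came from, so each p-value measures the spread between these libraries, which may be technical.

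A collagen is a protein of 3 chains wound into a triple helix, and each collagen gene encodes 1 chain. Fibrillar collagens (types I, II, III, V, XI, XXIV and XXVII) build the banded fibrils of connective tissue, and fibroblasts are the main source of types I, III and V. Basement membrane collagens (type IV) form the sheet on which epithelial and endothelial cells rest. FACIT collagens (types IX, XII, XIV, XVI, XIX, XX and XXII) attach to the surface of fibrils, and the beaded filaments of type VI link cells to the matrix around them. The remaining classes are the anchoring fibrils of type VII, the hexagonal networks of types VIII and X, the transmembrane collagens (types XIII, XVII, XXIII and XXV) and the multiplexins (types XV and XVIII), which sit at basement membranes. Col26a1 and Col28a1 were classed as other.

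Total estimated counts were 51465395 and 40681328 in the Dnmt3l-KO libraries, replicates 1 and 2, and 47776612 and 41049869 in the WT libraries. Dnmt3l itself had 0 and 0 counts in the Dnmt3l-KO libraries and 6 and 1 in the WT libraries, too few to check the genotype labels. Fibroblast markers were present in all 4 libraries: the 10 markers summed to 14415 and 14221 CPM (counts scaled to a common library total, with edgeR's TMM factors) in the Dnmt3l-KO libraries and 13450 and 12186 CPM in the WT libraries, most of it from Fn1 and Vim. None of the 10 passed the test between genotypes, and 8 of them were higher in Dnmt3l-KO replicate 2 than in replicate 1 (50.7% of all genes tested). Some markers of endothelium (Pecam1, Cdh5, Tie1, Cldn5), epithelium (Epcam, Cdh1, Krt5, Krt8, Krt14), muscle (Myod1, Myog, Myf5, Myh3, Ckm), leukocytes (Ptprc, Emr1, Itgam) and osteoblasts (Bglap, Bglap2, Ibsp, Alpl, Dmp1) stayed under 1 CPM in every library, and are named for being low. The other measured genes of those lists passed 1 CPM in at least 1 library. These were Kdr, Tek and Emcn, Krt18 and Krt19, Actn3, Csf1r, Cd68, Lyz2 and Cd14, and Sp7, Runx2 and Spp1. Krt19 had 48.0 and 37.6 CPM in Dnmt3l-KO and 37.01 and 47.8 CPM in WT. Runx2 had 41.4 and 52.5 CPM in Dnmt3l-KO and 41.8 and 43.7 CPM in WT. Sp7 had 3.49 and 1.10 CPM in Dnmt3l-KO and 1.68 and 2.88 CPM in WT. A count of 3 in a library came to between 0.0601 and 0.0719 CPM, and a count of 0 is given as 0 CPM.

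Most collagen RNA in these fibroblasts was fibrillar. In FPKM, which divides by transcript length and so allows levels of different genes to be compared, fibrillar chains made up 74.0% and 78.4% of all collagen FPKM in the Dnmt3l-KO libraries and 76.9% and 74.5% in the WT libraries. Col1a1, the alpha 1 chain of type I, had the highest level at 899.6 ± 399.8 FPKM in Dnmt3l-KO and 733.7 ± 76.5 FPKM in WT (mean ± SD, n = 2 each). Col1a2, its partner chain, came next with 529 ± 253 FPKM in Dnmt3l-KO and 459 ± 51.5 FPKM in WT, followed by Col5a2 with 288 ± 65.7 FPKM in Dnmt3l-KO and 311 ± 15.6 FPKM in WT. These 3 genes held 62.0% and 64.9% of the collagen FPKM in the Dnmt3l-KO libraries and 64.8% and 61.7% in the WT libraries. Below them, Col5a1 had 169 ± 49.8 FPKM in Dnmt3l-KO and 148 ± 2.83 FPKM in WT, Col12a1 119 ± 20.9 FPKM in Dnmt3l-KO and 109 ± 9.77 FPKM in WT, Col4a1 107 ± 2.505 FPKM in Dnmt3l-KO and 116 ± 15.9 FPKM in WT, Col3a1 91.5 ± 85.5 FPKM in Dnmt3l-KO and 67.5 ± 7.46 FPKM in WT and Col4a2 78.8 ± 3.37 FPKM in Dnmt3l-KO and 76.8 ± 4.85 FPKM in WT. From Col12a1 to Col4a2, neighbours in this order lay within the SD of one another in Dnmt3l-KO, and in WT the order differed, with Col4a1 above Col12a1 and Col4a2 above Col3a1. With Col6a1 and Col6a3 added, the 10 genes with the highest mean held 89.9% and 90.6% of the collagen FPKM in the Dnmt3l-KO libraries and 90.8% and 89.4% in the WT libraries.

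At the other end, 6 of the 44 genes stayed below the filter. Col13a1 had 0 counts in all 4 libraries, and Col22a1, Col26a1, Col6a4, Col6a5 and Col6a6 had at most 6 counts in any library. No fold change is given for these. Among the genes that passed, Col11a2, Col9a1, Col9a2, Col9a3, Col4a3, Col4a4, Col17a1, Col23a1, Col24a1 and Col25a1 lay under 0.3 FPKM in every library.

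**Figure D1:**
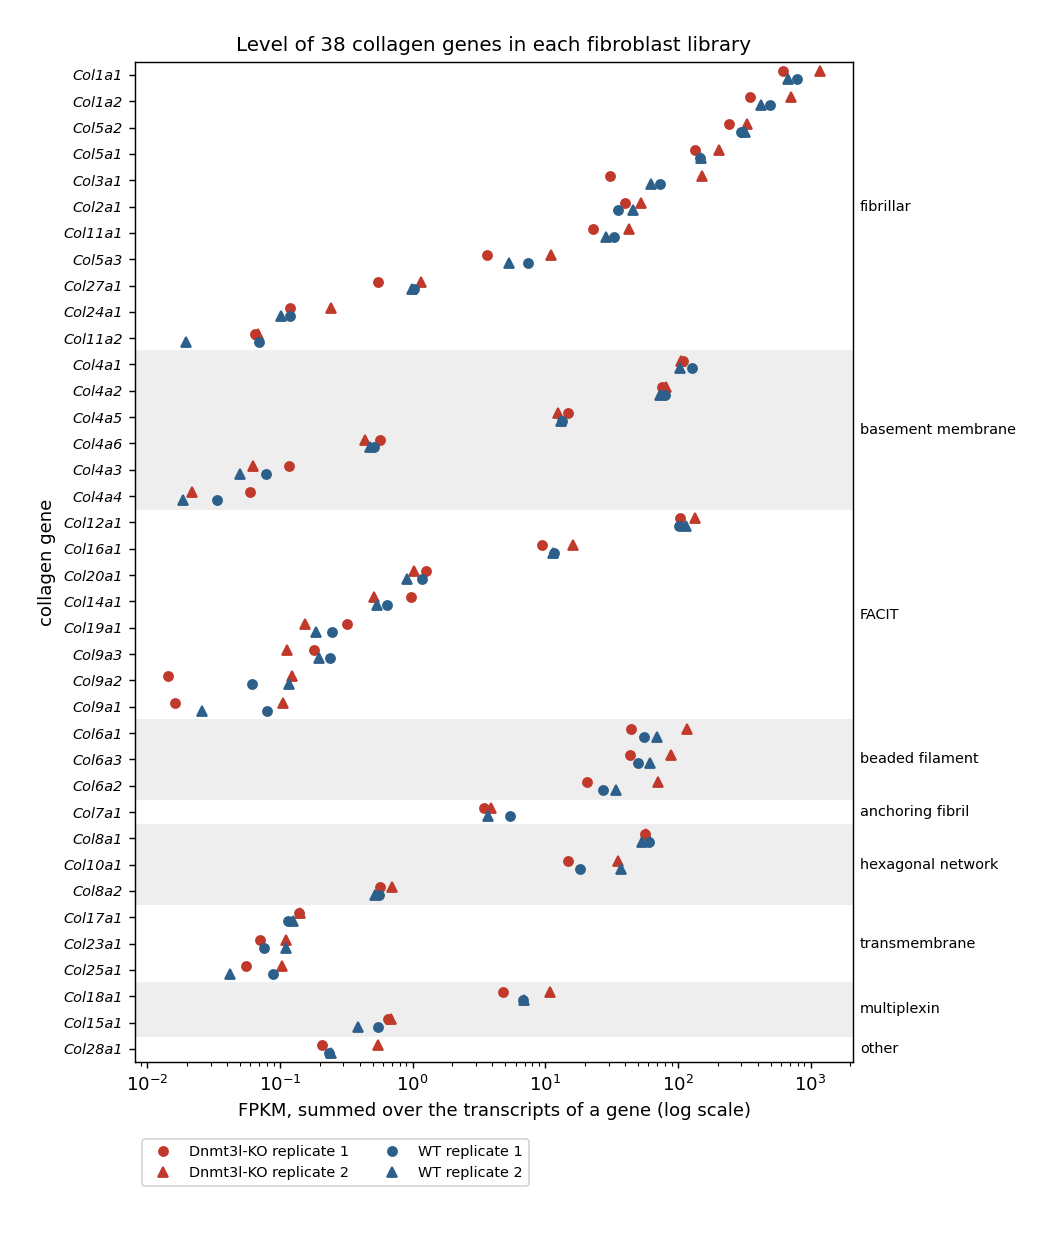
Level of the 38 collagen genes that passed the filter, in FPKM on a log scale, by class, with 1 point for each library (red Dnmt3l-KO, blue WT; circle replicate 1, triangle replicate 2). The type I and V chains lead, and for many fibrillar and beaded filament chains the red points lie on both sides of the blue ones.

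The comparison of genotypes asked which collagen genes differed between Dnmt3l-KO and WT fibroblasts. By edgeR's quasi-likelihood test with Benjamini-Hochberg adjustment over all 14760 genes, 0 of the 38 collagens passed an adjusted p of 0.05, where 3 genes passed in all (0.0203% of those tested). At an unadjusted p under 0.05 the count was again 0, against 4.15% of all genes, and DESeq2 also called 0 (0.18% of its 17200 genes). Adjusted p-values of all 38 were 0.999. The fitted log2 fold change of Dnmt3l-KO over WT was positive for 27 collagens and negative for 11, with a median of 0.11, where 51.3% of all genes were positive and their median was 0.0062. The smallest unadjusted p-values among positive differences belonged to Col15a1, Col24a1 and Col28a1, and among negative ones to Col7a1, Col9a3 and Col4a1. Col15a1, a multiplexin chain, had 3.73 and 3.85 CPM in Dnmt3l-KO and 3.38 and 2.16 CPM in WT, a log2 fold change of 0.45 ± 0.29 (± SE, here and for every fold change). Col7a1, the single chain of anchoring fibrils, had 34.8 and 38.2 CPM in Dnmt3l-KO and 58.2 and 36.2 CPM in WT, a log2 fold change of -0.37 ± 0.24, with WT replicate 2 between both Dnmt3l-KO libraries. In these bulk libraries, fewer cells of a type and less RNA per cell cannot be told apart.

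**Figure D2:**
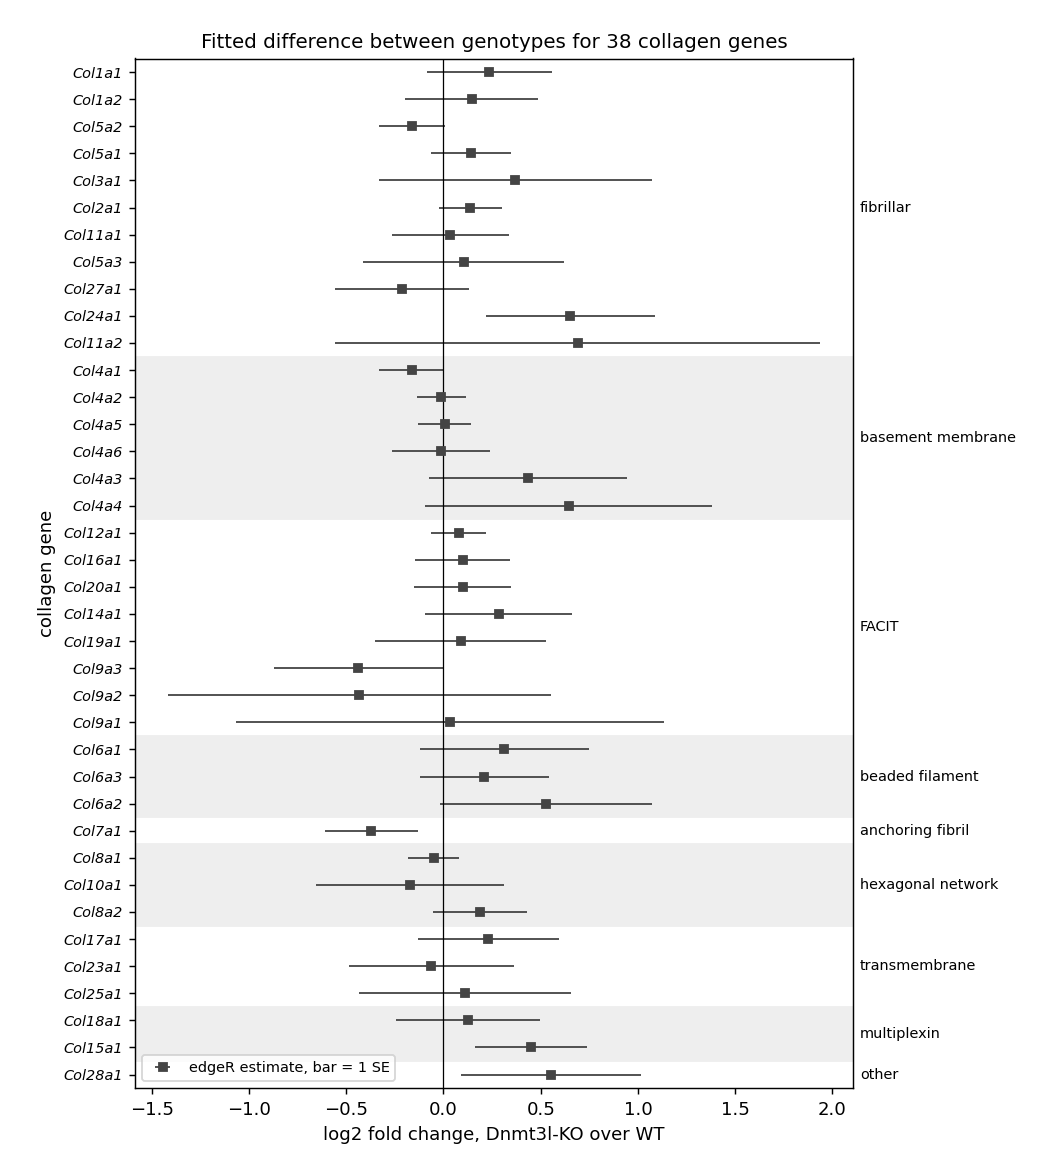
Fitted log2 fold change of Dnmt3l-KO over WT for the 38 collagen genes, by class, as the edgeR estimate with bars of 1 standard error (2 libraries per genotype). Bars are long for Col3a1, Col6a2 and Col5a3 although these have many counts, and 0 genes passed the test.

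The collagens were spread widely between the 2 Dnmt3l-KO libraries. For 22 of the 38 genes (57.9%), one Dnmt3l-KO library lay below both WT libraries and the other above both, where this held for 27.7% of all genes tested. Replicate 2 was the higher one for 18 of these 22. Over all 38 collagens, Dnmt3l-KO replicate 2 was above replicate 1 for 27 (71.1%), against 50.7% of all genes tested. Both Dnmt3l-KO libraries lay above both WT libraries for 2 collagens, Col15a1 and Col17a1 (16.2% of all genes), and below both for 0 (16.5% of all genes). The 2 Dnmt3l-KO libraries were over 1.5-fold apart in CPM for 23 of 38 collagens (19.5% of all genes), and the 2 WT libraries for 9 (11% of all genes). Among the 20 collagens with a mean above 10 CPM, the Dnmt3l-KO libraries were over 1.5-fold apart for 11, against 8.01% of the 8800 genes at that level, and the WT libraries for 3, against 1.98%. Of those 20, 14 had the Dnmt3l-KO libraries on either side of both WT libraries, again against 27.7%, and in 13 of them replicate 2 was the higher. Dnmt3l-KO replicate 2 was above replicate 1 for 17 of the 20 (85%), against 45.6% of the 8800 genes. With Dnmt3l-KO replicate 1 left out, 11 collagens had an unadjusted p under 0.05, all 11 higher in Dnmt3l-KO and led by Col6a2, Col6a1 and Col3a1 (12% of all genes were under 0.05). With Dnmt3l-KO replicate 2 left out, 10 did, 9 of them lower and led by Col3a1, Col18a1 and Col6a2 (13.3% of all genes). Leaving out WT replicate 1 gave 1 such collagen, Col11a2 (1.31% of all genes), and leaving out WT replicate 2 also gave 1, Col7a1 (1.46% of all genes). None passed the adjusted test in any of the 4, and each lone library was taken to vary like those of the other genotype.

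Over all collagens, the summed level was 12862 and 20856 CPM in the Dnmt3l-KO libraries and 16687 and 14621 CPM in the WT libraries. Collagen transcripts took 1.25% and 2.14% of the counts in the Dnmt3l-KO libraries, against 1.64% and 1.49% in the WT libraries. Fibroblast markers that differed the same way between the Dnmt3l-KO libraries included the growth factor receptor Pdgfra, with 17.2 and 65.4 CPM in Dnmt3l-KO and 23.4 and 38.6 CPM in WT, and the fibril-binding proteoglycan Lum, with 0.421 and 9.38 CPM in Dnmt3l-KO and 1.19 and 2.54 CPM in WT. Thy1, a surface glycoprotein, had 95.4 and 205 CPM in Dnmt3l-KO and 164 and 119 CPM in WT. Vim and S100a4 ran the other way, with 1212 and 914 CPM of S100a4 in Dnmt3l-KO and 1267 and 1488 CPM in WT. The 8 osteoblast markers, mostly the matrix protein Spp1, summed to 228 and 506 CPM in Dnmt3l-KO and 409 and 343 CPM in WT. The 7 endothelial markers summed to 20.2 and 6.53 CPM in Dnmt3l-KO, on either side of 8.60 and 10.1 CPM in WT and with replicate 1 the higher, the reverse of the collagen sum. Most of it was the receptor Kdr, with 17.5 and 4.81 CPM in Dnmt3l-KO and 6.71 and 8.36 CPM in WT. The 7 epithelial markers, mostly Krt19, summed to 53.8 and 41.5 CPM in Dnmt3l-KO and 44.6 and 53.6 CPM in WT. The 7 macrophage and leukocyte markers, led by Lyz2, summed to 12.1 and 10.7 CPM in Dnmt3l-KO and 11.3 and 9.56 CPM in WT, and the 6 of skeletal muscle to 1.38 and 1.27 CPM in Dnmt3l-KO and 1.699 and 1.32 CPM in WT. The 5 markers of glia and neural crest summed to 5.51 and 5.74 CPM in Dnmt3l-KO and 4.46 and 4.84 CPM in WT. The 4 adipocyte markers summed to 21.2 and 13.6 CPM in Dnmt3l-KO and 12.1 and 24.04 CPM in WT, with Adipoq and Plin1 under 1 CPM in every library. The part of these markers in the collagen values was not tested.

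**Figure D3:**
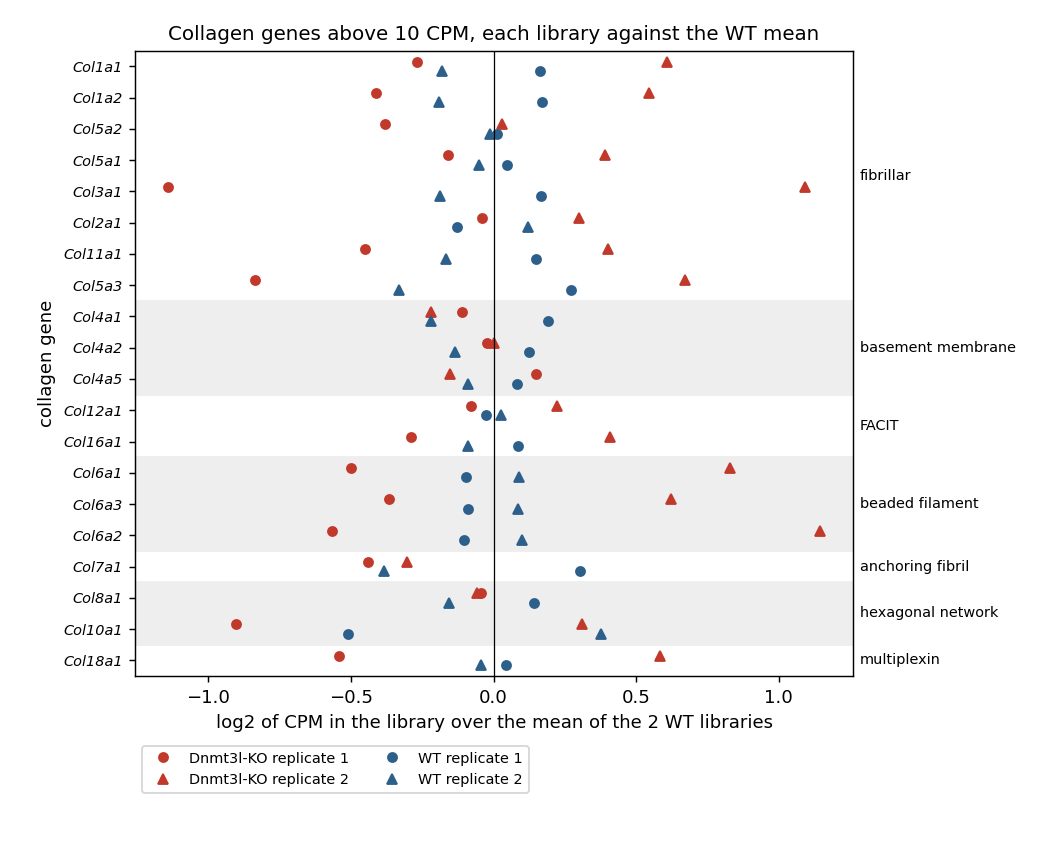
The 20 collagen genes above 10 CPM, as the log2 of each library's CPM over the mean of the 2 WT libraries, with red points for Dnmt3l-KO and blue for WT (circle replicate 1, triangle replicate 2). For 14 of the 20 the red points lie on either side of both blue points, with Dnmt3l-KO replicate 2 on the high side in 13. The 2 red points of Col4a1, of Col4a2 and of Col8a1 lie close together, between the blue ones.

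Among the fibrillar collagens all 11 genes passed the filter, 9 with a positive and 2 with a negative fitted difference, and none of the 11 passed the test. Their summed level was 8798 and 15455 CPM in the Dnmt3l-KO libraries and 12028 and 10184 CPM in the WT libraries, so Dnmt3l-KO replicate 1 was the lowest and replicate 2 the highest of the 4. The same order held gene by gene for 8 of the 11. Col1a1 had 3206 and 5891 CPM in Dnmt3l-KO and 4319.7 and 3405 CPM in WT, a log2 fold change of 0.24 ± 0.32 (± SE, as below). Col1a2 had 1987 and 3853 CPM in Dnmt3l-KO and 2968 and 2313 CPM in WT, a log2 fold change of 0.14 ± 0.34. Both type I chains were 1.84-fold and 1.94-fold higher in Dnmt3l-KO replicate 2 than in replicate 1, while the WT libraries were 1.27-fold and 1.28-fold apart.

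Col3a1, the chain of the thin fibrils of skin and vessels, had the widest gap between the Dnmt3l-KO libraries among collagens above 10 CPM. It had 190.2 and 895 CPM in Dnmt3l-KO, a 4.703-fold gap, and 471 and 368 CPM in WT, and its log2 fold change was 0.37 ± 0.70. Without Dnmt3l-KO replicate 1 the log2 fold change was 1.09, and without replicate 2 it was -1.14. Col5a3, a minor type V chain, had 24.6 and 69.9 CPM in Dnmt3l-KO and 52.9 and 34.8 CPM in WT. Col11a1, which joins type V chains in non-cartilage tissue and type II in cartilage, had 183 and 329 CPM in Dnmt3l-KO and 277 and 222 CPM in WT.

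The major type V chains, which regulate fibril diameter, varied less. Col5a1 had 1218 and 1785 CPM in Dnmt3l-KO and 1407 and 1316 CPM in WT, a log2 fold change of 0.14 ± 0.21. Col5a2 had 1760.3 and 2338 CPM in Dnmt3l-KO and 2311 and 2268 CPM in WT, a log2 fold change of -0.16 ± 0.17. Here replicate 1 of Dnmt3l-KO stood below the other libraries, which ranged from 2268 to 2338 CPM. Col2a1, the cartilage fibril chain, had 223 and 283 CPM in Dnmt3l-KO and 210.1 and 249.7 CPM in WT, a log2 fold change of 0.14 ± 0.16, and the genotypes overlapped. Among the low fibrillar chains, Col27a1 had 4.67 and 9.09 CPM in Dnmt3l-KO and 8.64 and 7.26 CPM in WT. Col24a1 had 0.942 and 1.82 CPM in Dnmt3l-KO and 0.977 and 0.767 CPM in WT, a log2 fold change of 0.65 ± 0.44. Col11a2 had 0.461 and 0.383 CPM in Dnmt3l-KO and 0.510 and 0 CPM in WT, with 0 counts in WT replicate 2. Its FPKM in that library was 0.0194, so the 0 is a rounded estimate.

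The beaded filament class also had Dnmt3l-KO replicate 1 lowest and replicate 2 highest, but with WT replicate 2 above WT replicate 1. The class sum was 760 and 1725 CPM in the Dnmt3l-KO libraries and 958 and 1086 CPM in the WT libraries. Col6a1 had 196 and 494 CPM in Dnmt3l-KO and 259.9 and 296 CPM in WT, a log2 fold change of 0.31 ± 0.43. Col6a2 had 87.4 and 286 CPM in Dnmt3l-KO and 120.4 and 139 CPM in WT, a log2 fold change of 0.53 ± 0.55. Col6a3, the long chain, had 477 and 945 CPM in Dnmt3l-KO and 577 and 652 CPM in WT, a log2 fold change of 0.21 ± 0.33. All 3 were lowest in Dnmt3l-KO replicate 1 and highest in replicate 2, 2.51-fold, 3.27-fold and 1.98-fold apart, while the WT libraries differed by at most 1.15-fold. The other 3 chains of the class, Col6a4, Col6a5 and Col6a6, were below the filter.

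Basement membrane collagens did not follow that order. Their sum was 1447 and 1378 CPM in the Dnmt3l-KO libraries and 1685 and 1331 CPM in the WT libraries. Only 1 of the 6 genes was higher in Dnmt3l-KO replicate 2 than in replicate 1 (50.7% of all genes tested). Col4a1 had 794 and 737 CPM in Dnmt3l-KO and 979 and 736 CPM in WT, a log2 fold change of -0.16 ± 0.17. Col4a2, its partner in the most widespread type IV molecule, had 542 and 552 CPM in Dnmt3l-KO and 600.0 and 501 CPM in WT, a log2 fold change of -0.010 ± 0.13. The genotypes overlapped for both chains. Col4a5 had 106 and 85.7 CPM in Dnmt3l-KO and 101 and 89.6 CPM in WT, and Col4a6 4.17 and 3.06 CPM in Dnmt3l-KO and 3.95 and 3.35 CPM in WT. Col4a3 and Col4a4, chains of the kidney filter, stood at 1.102 and 0.574 CPM and 0.521 and 0.167 CPM in Dnmt3l-KO, against 0.786 and 0.455 CPM and 0.297 and 0.144 CPM in WT. Col4a3 and Col4a4 rest on at most 55 counts a library.

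Among FACIT collagens, 8 of 9 genes passed the filter, and Col12a1 made up most of the class at 1346 and 1658 CPM in Dnmt3l-KO and 1397 and 1449 CPM in WT, a log2 fold change of 0.078 ± 0.14. Col16a1 had 54.2 and 87.8 CPM in Dnmt3l-KO and 70.2 and 62.2 CPM in WT, a log2 fold change of 0.10 ± 0.24, with the Dnmt3l-KO libraries again on either side. The lower FACIT chains went both ways between the Dnmt3l-KO libraries. Col14a1 and Col19a1 were highest in Dnmt3l-KO replicate 1 and lowest in replicate 2. Col14a1 had 6.85 and 3.47 CPM in Dnmt3l-KO and 4.799 and 3.69 CPM in WT, and Col19a1 3.79 and 1.75 CPM in Dnmt3l-KO and 3.06 and 2.16 CPM in WT. Col20a1 had 6.63 and 5.09 CPM in Dnmt3l-KO and 6.35 and 4.601 CPM in WT. The type IX chains of cartilage were near the limit of detection. Col9a1 had 0.0401 and 0.359 CPM in Dnmt3l-KO and 0.276 and 0.0959 CPM in WT, Col9a2 0.0401 and 0.359 CPM in Dnmt3l-KO and 0.191 and 0.335 CPM in WT, and Col9a3 0.561 and 0.359 CPM in Dnmt3l-KO and 0.701 and 0.551 CPM in WT, so that Dnmt3l-KO replicate 1 had 2 counts of Col9a1 and 2 of Col9a2.

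In the hexagonal network class, Col8a1, a chain of vascular and corneal matrix, had the smallest gap between the Dnmt3l-KO libraries of all collagens above 10 CPM. It had 316 and 313 CPM in Dnmt3l-KO and 359 and 292 CPM in WT, a log2 fold change of -0.050 ± 0.13. Col10a1, a chain of hypertrophic cartilage, had 50.996 and 118 CPM in Dnmt3l-KO and 66.97 and 124 CPM in WT, and was higher in replicate 2 of both genotypes, 2.32-fold in Dnmt3l-KO and 1.85-fold in WT. Col10a1 lies within Nt5dc1, a gene on the opposite strand, and the sources used here do not say whether reads were counted by strand. Nt5dc1 stood at 7.35 and 9.54 CPM in Dnmt3l-KO and 8.05 and 9.801 CPM in WT, below Col10a1 in all 4 libraries. Col8a2 had 2.73 and 3.18 CPM in Dnmt3l-KO and 2.803 and 2.37 CPM in WT.

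Of the multiplexins, Col18a1, the source of endostatin, had 26.7 and 58.4 CPM in Dnmt3l-KO and 40.1 and 37.8 CPM in WT, a log2 fold change of 0.13 ± 0.37. It overlaps Slc19a1 on the opposite strand, which had 11.3 and 10.1 CPM in Dnmt3l-KO and 10.999 and 9.75 CPM in WT. Col28a1, which is not a multiplexin and was classed as other, had 1.102 and 2.51 CPM in Dnmt3l-KO and 1.25 and 1.198 CPM in WT. Its log2 fold change was 0.55 ± 0.46, with Dnmt3l-KO replicate 2 alone standing high. The transmembrane chains stayed under 1 CPM. Col17a1 had 0.621 and 0.622 CPM in Dnmt3l-KO and 0.531 and 0.527 CPM in WT, Col23a1 0.441 and 0.670 CPM in Dnmt3l-KO and 0.510 and 0.647 CPM in WT, and Col25a1 0.441 and 0.813 CPM in Dnmt3l-KO and 0.764 and 0.383 CPM in WT.

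For types I, V and VI, the ratio between partner chains spread less between the Dnmt3l-KO libraries than the levels of the chains did. This did not hold for types IV and VIII. The Col4a1 to Col4a2 ratio was 1.098-fold apart, against 1.03-fold and 1.06-fold for the FPKM of its chains. The Col8a1 to Col8a2 ratio was 1.19-fold apart, against 1.03-fold and 1.23-fold. The ratio of Col1a1 to Col1a2, which join as 2 to 1 in type I collagen, was 1.76 and 1.67 in Dnmt3l-KO and 1.59 and 1.61 in WT. Col4a1 to Col4a2, also 2 to 1 in the protein, gave 1.42 and 1.30 in Dnmt3l-KO and 1.58 and 1.43 in WT. Col5a1 to Col5a2 gave 0.557 and 0.613 in Dnmt3l-KO and 0.487 and 0.466 in WT. For type VIII, Col8a1 to Col8a2 gave 98.1 and 82.6 in Dnmt3l-KO and 107.6 and 103 in WT. Of the 9 ratios computed, the Dnmt3l-KO libraries lay above both WT libraries for 2 (types I and V). They lay below both for 2 (Col4a1 to Col4a2 and Col8a1 to Col8a2) and overlapped them for 5. With 2 libraries against 2 an exact two-sided permutation test cannot go below p = 0.333. The share of ratios that do not overlap was not computed over other gene pairs, so these counts are not read as a difference between genotypes. Among type VI chains, Col6a1 to Col6a2 was 2.15 and 1.64 in Dnmt3l-KO and 2.06 and 2.04 in WT. Col6a3 to Col6a1 was 0.979 and 0.764 in Dnmt3l-KO and 0.891 and 0.883 in WT, and Col6a3 to Col6a2 was 2.11 and 1.25 in Dnmt3l-KO and 1.84 and 1.799 in WT. The 3 type VI ratios were 1.28-fold to 1.68-fold apart between the Dnmt3l-KO libraries, where the FPKM of the 3 chains were 2.05-fold to 3.44-fold apart. Between types, Col3a1 to Col1a1 was 0.0502 and 0.129 in Dnmt3l-KO, on either side of 0.0923 and 0.0915 in WT, and Col11a1 to Col5a1 was 0.170 and 0.209 in Dnmt3l-KO and 0.224 and 0.191 in WT.

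**Figure D4:**
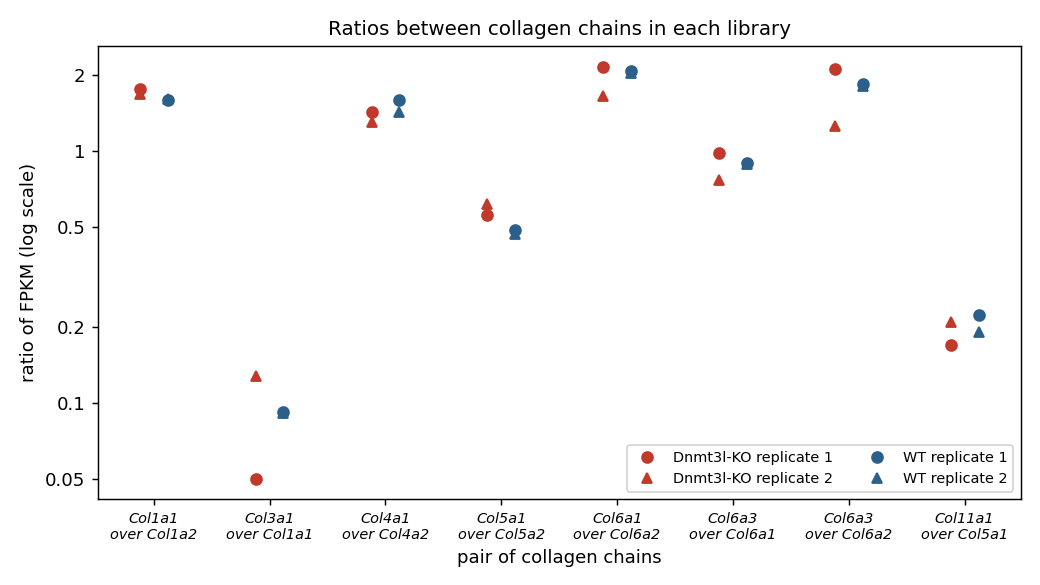
Ratio of FPKM between pairs of collagen chains, on a log scale, with 1 point for each library (red Dnmt3l-KO, blue WT; circle replicate 1, triangle replicate 2). The Col1a1 to Col1a2 ratio stays between 1.59 and 1.76, while Col3a1 to Col1a1 runs over a wider range in the red points, 0.0502 and 0.129.

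Several collagen genes are neighbours in the genome (GRCm38 positions from RefSeq). Col3a1 (chromosome 1, 45311538 to 45349706) and Col5a2 (45374331 to 45503282) face each other tail to tail with 24624 bases between them. Their gaps between the Dnmt3l-KO libraries were 4.703-fold and 1.33-fold. Col6a2 (chromosome 10, 76595756 to 76623630) and Col6a1 (76708792 to 76726044) lie 85161 bases apart on the same strand, with Col18a1 326133 bases beyond Col6a1, and all 3 had Dnmt3l-KO replicate 1 lowest and replicate 2 highest. Col4a5 and Col4a6 on chromosome X point away from each other with 1274 bases between them. Col4a5 stood at 13.6 ± 1.601 FPKM in Dnmt3l-KO and 13.2 ± 0.268 FPKM in WT and Col4a6 at 0.502 ± 0.0941 FPKM in Dnmt3l-KO and 0.492 ± 0.0240 FPKM in WT.

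Col4a1 and Col4a2 on chromosome 8 are read in opposite directions from start sites 21 bases apart, so their promoter windows share 78 bases. Promoter windows of 300 bases, with 250 before the start site and 50 after it, were found in RefSeq's table (GRCm38.p6) for 35 of the 44 genes. Those of this pair are shown with 3 genes whose Dnmt3l-KO libraries stood far apart, Col1a2, Col3a1 and Col6a1. Each is written 5′ to 3′ on the strand of its gene, and capitals mark the motif CCAAT, the motif TATAAA and the motif GGGCGG, read on either strand (ATTGG, the other strand of the first, can share letters with the last). Col4a1 is at chr8:11312777-11313076 (minus strand), Col4a2 at chr8:11312555-11312854 (plus strand), Col1a2 at chr6:4505368-4505667 (plus strand), Col3a1 at chr1:45311288-45311587 (plus strand) and Col6a1 at chr10:76725995-76726294 (minus strand).
Col4a1 promoter: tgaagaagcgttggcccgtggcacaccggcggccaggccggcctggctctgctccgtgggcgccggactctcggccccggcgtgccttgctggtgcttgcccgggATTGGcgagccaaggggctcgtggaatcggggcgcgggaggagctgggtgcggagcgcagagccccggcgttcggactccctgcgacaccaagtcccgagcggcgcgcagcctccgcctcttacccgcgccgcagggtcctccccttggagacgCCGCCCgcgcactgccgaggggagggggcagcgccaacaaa
Col4a2 promoter: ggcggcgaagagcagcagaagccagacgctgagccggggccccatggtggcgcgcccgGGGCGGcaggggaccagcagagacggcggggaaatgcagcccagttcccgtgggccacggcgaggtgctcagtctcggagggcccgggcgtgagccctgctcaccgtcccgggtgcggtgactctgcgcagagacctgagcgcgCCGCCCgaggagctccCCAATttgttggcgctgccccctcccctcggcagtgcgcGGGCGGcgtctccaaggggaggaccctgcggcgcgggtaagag
Col1a2 promoter: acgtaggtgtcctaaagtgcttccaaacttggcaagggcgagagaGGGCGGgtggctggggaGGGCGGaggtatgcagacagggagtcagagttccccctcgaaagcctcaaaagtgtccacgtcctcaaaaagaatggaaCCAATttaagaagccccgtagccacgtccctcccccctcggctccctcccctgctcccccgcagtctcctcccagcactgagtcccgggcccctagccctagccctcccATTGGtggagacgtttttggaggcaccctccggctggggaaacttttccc
Col3a1 promoter: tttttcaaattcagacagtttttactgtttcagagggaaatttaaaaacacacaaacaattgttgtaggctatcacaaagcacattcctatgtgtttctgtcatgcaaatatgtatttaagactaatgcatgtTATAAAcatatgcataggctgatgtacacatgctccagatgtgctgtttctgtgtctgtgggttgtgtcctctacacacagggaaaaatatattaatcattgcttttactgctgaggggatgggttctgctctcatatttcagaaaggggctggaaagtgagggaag
Col6a1 promoter: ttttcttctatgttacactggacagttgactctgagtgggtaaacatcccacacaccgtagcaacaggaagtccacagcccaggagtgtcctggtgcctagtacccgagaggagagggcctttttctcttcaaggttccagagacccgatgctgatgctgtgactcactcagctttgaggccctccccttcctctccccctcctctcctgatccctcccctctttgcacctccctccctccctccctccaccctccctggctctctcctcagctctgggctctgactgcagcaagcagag

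The paired type IV promoter was 74.0% and 73.7% G and C in its 2 windows and held CCAAT in each of them. There was 1 match of GGGCGG in the Col4a1 window and 3 in that of Col4a2. The match in the Col4a1 window lies in the bases that the windows share and is the same site as 1 of those 3. The Col1a2 window held 2 matches of CCAAT and 2 of GGGCGG. The Col3a1 window was 37.7% G and C and held TATAAA but neither of the others, and none of the 3 motifs was in the Col6a1 window. Over the 35 genes, GGGCGG, the core of the site bound by Sp1, was present in 22 (62.9%), against 35.9% of 27025 genes. CCAAT was present in 12 (34.3%), against 37.9% of all, and TATAAA in 5 (14.3%), against 14.2%. The median G and C content was 59.8% over all 38 collagen windows, some genes having more than 1, and 52.7% over 1 window for each of the 27025 genes. A match is a string of letters only, and a window without one says nothing of the factor.

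Transcripts of a collagen gene were compared by their share of the gene's estimated count. The sources do not say how reads that fit several transcripts were divided, and the shares rest on that step. Of 84 collagen transcripts tested in edgeR on single transcripts, 0 passed an adjusted p of 0.05 (0.00252% of 39633 passed), and 6 had an unadjusted p under 0.05 (4.12% of all), 3 higher and 3 lower in Dnmt3l-KO. Of the 45 isoforms with at least 100 counts in a library, in 18 genes, 9 had a share higher in both Dnmt3l-KO libraries than in both WT libraries and 10 a lower one, where 34.3% of 21520 such transcripts over all genes did not overlap. In the authors' deposited table, 58 collagen transcripts had an adjusted p-value, 0 of them under 0.05, where 124 of 28097 transcripts were.

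Col2a1 is spliced to include or skip exon 2. In cartilage, transcripts with exon 2 belong to precursor cells and those without it to mature chondrocytes, and the exon encodes a cysteine-rich part of the N-terminal propeptide. The transcript without it (NM_001113515.2) took 30.6% and 19.7% of the Col2a1 count in Dnmt3l-KO and 14.9% and 16.2% in WT, with 95% Wilson intervals of 29.7 to 31.4%, 18.99 to 20.4%, 14.2 to 15.6% and 15.5 to 16.96% that cover counting error only. The transcript with exon 2 (NM_031163.3) took 68.4% and 79.2% in Dnmt3l-KO and 83.8% and 83.3% in WT. Both Dnmt3l-KO libraries lay above both WT libraries for the skipping form, replicate 1 by more. Its log2 fold change was 0.79 ± 0.19 (edgeR on transcripts, adjusted p = 0.9999), and the authors' deposited table lists 0.71 with an adjusted p of 0.193. By edgeR the skipping form had the smallest unadjusted p of the 45 isoforms (0.0108). The authors' adjusted p was likewise their smallest for a collagen transcript. An isoform at the end of such a ranking lies far apart between genotypes by that choice. Of 8 measured chondrocyte markers other than collagens, Ucma was at 0 and Matn1 and Chad were under 1 CPM in every library. The 8 summed to 33.0 and 78.7 CPM in Dnmt3l-KO and 44.3 and 51.1 CPM in WT, led by Sox9, with Acan at 3.65 and 18.8 CPM in Dnmt3l-KO and 13.6 and 11.3 CPM in WT. Their part in the exon 2 share was not tested. The exon, 204 coding bases at chr15:98000403-98000606 (minus strand, GRCm38), is shown because its presence is what separates the 2 transcripts. Its letters were read from the GENCODE transcript with the same exons.
Col2a1 exon 2: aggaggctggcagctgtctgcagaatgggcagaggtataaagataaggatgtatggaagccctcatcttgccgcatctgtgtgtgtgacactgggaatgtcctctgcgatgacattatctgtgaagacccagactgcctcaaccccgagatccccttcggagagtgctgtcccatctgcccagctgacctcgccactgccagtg

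The 19 isoforms whose shares did not overlap belonged to 10 genes and made up 42.2% of the 45, beside 34.3% over all genes. Those of Col4a5, Col16a1 and Col7a1 described next were picked for their small p-values, and the Col2a1 form above had the smallest. For all of these the distance between genotypes follows from the choice. Of the Col4a5 transcripts, NM_007736.4 took 12.6% and 14.4% in Dnmt3l-KO and 23.0% and 22.2% in WT, a log2 fold change of -0.75 ± 0.18. NM_001163155.1, the main transcript of Col4a5, took 56.9% and 63.2% in Dnmt3l-KO and 48.2% and 38.2% in WT. The predicted Col16a1 transcript XM_006502639.1 took 20.9% and 21.8% in Dnmt3l-KO and 9.71% and 11.7% in WT, a log2 fold change of 1.11 ± 0.33. The predicted Col7a1 transcript XM_006511935.1 took 36.4% and 37.1% in Dnmt3l-KO and 48.3% and 51.4% in WT, a log2 fold change of -0.80 ± 0.26. By edgeR, the 3 transcripts given with a fold change had an adjusted p of 0.9999. Shares also did not overlap for transcripts of Col12a1, Col14a1, Col18a1, Col20a1, Col4a1 and Col5a3. The main Col18a1 transcript NM_009929.3 took 97.5% and 97.6% in Dnmt3l-KO and 96.1% and 96.1% in WT, and NM_016919.2 of Col5a3 took 79.8% and 80.5% in Dnmt3l-KO and 75.96% and 75.4% in WT. The 2 Col6a3 transcripts, which differ by exons 3, 4 and 6 and in their last exon, overlapped between genotypes, with 51.9% and 57.9% on NM_001243008.1 in Dnmt3l-KO and 54.96% and 56.1% in WT.

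**Figure D5:**
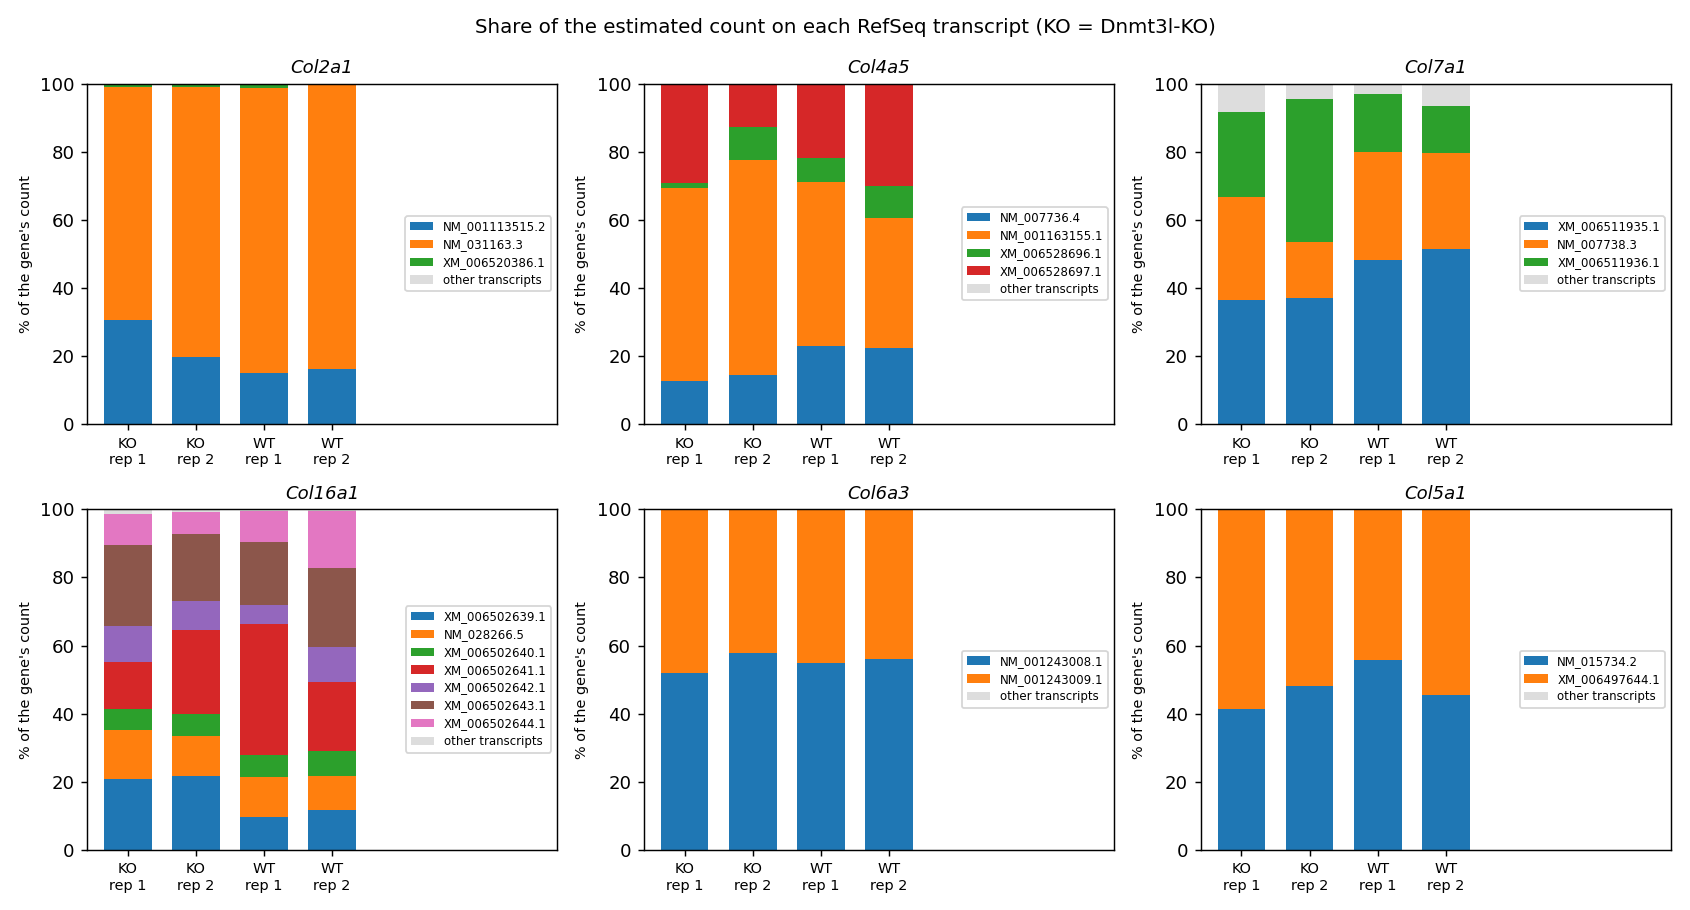
Share of the estimated count on each RefSeq transcript of 6 collagen genes, in percent of the gene's count, with a bar for each library (Dnmt3l-KO at left, WT at right) and transcripts under 100 counts in every library as other transcripts. The skipping transcript of Col2a1, NM_001113515.2, is at 30.6% and 19.7% in Dnmt3l-KO and 14.9% and 16.2% in WT.

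Genes that make, process or bind collagen were taken from 6 lists of 60 genes, of which 51 were tested. Of these, 0 passed the adjusted test, and 2 had an unadjusted p under 0.05 (4.15% of all genes), Plod1 and Creb3l1, both higher in Dnmt3l-KO. The median log2 fold change of the 51 was 0.049, with 33 positive and 18 negative. Plod1, which hydroxylates lysines in the helix, had 82.6 and 89.3 CPM in Dnmt3l-KO and 73.4 and 71.004 CPM in WT, a log2 fold change of 0.25 ± 0.092. Creb3l1, a membrane-bound transcription factor that acts on type I collagen genes, had 32.6 and 40.4 CPM in Dnmt3l-KO and 29.9 and 23.2 CPM in WT, a log2 fold change of 0.46 ± 0.18. Ppib, a prolyl isomerase of collagen folding, had 276 and 287 CPM in Dnmt3l-KO and 335 and 326 CPM in WT, a log2 fold change of -0.23 ± 0.10. In these 3, named for their small p-values, the Dnmt3l-KO libraries lay on one side of both WT libraries. Over the 51 genes this held for 16 (31.4%), 11 above (16.2% of all genes) and 5 below (16.5% of all genes).

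Genes of folding and secretion spread less than the collagens. Between the Dnmt3l-KO libraries the median fold was 1.08 over 19 genes of synthesis and folding and 1.08 over 6 of secretion, against 1.82 over the collagens and 1.17 over all genes. Among the secretion genes with the smallest p-values, Sec24d of the COPII coat had 133 and 153 CPM in Dnmt3l-KO and 130.5 and 128 CPM in WT. Sar1b, the GTPase of that coat, had 53.7 and 48.1 CPM in Dnmt3l-KO and 55.2 and 57.1 CPM in WT, and the retrieval receptor Kdelr2 had 277 and 276 CPM in Dnmt3l-KO and 258 and 258 CPM in WT. Lox, which oxidises lysines to cross-link fibrils, was the most abundant enzyme of its list, with 1935 and 2114 CPM in Dnmt3l-KO and 1737 and 1763 CPM in WT, a log2 fold change of 0.21 ± 0.12. Its relative Loxl3 had 341 and 350.4 CPM in Dnmt3l-KO and 400.0 and 394 CPM in WT, a log2 fold change of -0.20 ± 0.10, and Loxl1 had 239 and 313 CPM in Dnmt3l-KO and 251 and 260.3 CPM in WT.

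Over the 8 genes of propeptide removal the median fold was 1.396 between the Dnmt3l-KO libraries and 1.5001 between the WT libraries, with 4 of the 8 over 1.5-fold apart in each genotype. It was 1.45 in Dnmt3l-KO and 1.18 in WT over 5 collagenases and gelatinases, and 1.296 in Dnmt3l-KO and 1.15 in WT over 8 receptors and uptake genes. Adamts2, the N-proteinase of fibrillar procollagens, had 7.39 and 21.4 CPM in Dnmt3l-KO and 16.8 and 13.8 CPM in WT, which is the order of the fibrillar chains, and it was picked out after its values were seen. Pcolce, an enhancer of C-propeptide cleavage, had 333 and 429 CPM in Dnmt3l-KO and 346 and 358 CPM in WT, and Pcolce2 had 36.05 and 28.4 CPM in Dnmt3l-KO and 33.995 and 37.6 CPM in WT. Tll2, a protease of the Bmp1 family, stood at 0.260 and 0.263 CPM in Dnmt3l-KO and 0.170 and 0.0959 CPM in WT. Among receptors, Mrc2, which takes up collagen fragments, had 129.8 and 173 CPM in Dnmt3l-KO and 129 and 109 CPM in WT, a log2 fold change of 0.35 ± 0.17. The collagen receptor kinase Ddr1 had 123 and 81.4 CPM in Dnmt3l-KO and 83.3 and 93.96 CPM in WT, and the integrin chain Itga10 1.002 and 1.24 CPM in Dnmt3l-KO and 0.892 and 0.983 CPM in WT. Of the collagen-degrading proteases, Mmp13 had 14.9 and 10.2 CPM in Dnmt3l-KO and 14.9 and 16.5 CPM in WT, a log2 fold change of -0.32 ± 0.20. The membrane protease Mmp14 had 219.6 and 305 CPM in Dnmt3l-KO and 258 and 218 CPM in WT, and the lysosomal protease Ctsk 21.2 and 32.4 CPM in Dnmt3l-KO and 34.04 and 30.5 CPM in WT. Mmp1a and Mmp8 had 0 counts in every library.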

How the data were processed

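RNA depleted of ribosomal RNA was sequenced from 2 Dnmt3l-KO and 2 WT libraries, from cDNA made with random primers and amplified over 12 cycles of PCR, per the labels' protocols. The submitters' processing notes name build mm10 and DESeq2 1.8.0, eXpress 1.4.1, TopHat2 2.0.12 and Cufflinks 2.2.1, with no role for each. Per the file headers, the authors deposited an estimated count and an FPKM value per RefSeq transcript and library. The estimated counts were whole numbers as deposited, yet 88253 of them were 0 beside an FPKM above 0, so they are rounded estimates. Their own comparison, per the file headers, comes as a p-value (raw and adjusted), a score of the test, a log2 fold change and a signal averaged across libraries, and was used only where named.

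Counts and FPKM were summed per symbol, and positions came from RefSeq (GRCm38, the same build as mm10). The comparison was Dnmt3l-KO over WT on counts, by edgeR 4.0.16 in R 4.3.3 (TMM, expression filter, robust quasi-likelihood test, genotype as the single term) at an adjusted p of 0.05 (Benjamini-Hochberg). The test was tried on simulated data first. Alternatives were other normalizations and filters, DESeq2 1.42.0, limma-voom and log2 FPKM with limma 3.58.1 (pseudocounts 1 and 0.1), a block for the replicate number, the omission of each library in turn and, added after the data had been seen, transcripts as features. Depth was 40681328 to 51465395 counts; intervals cover counting error only.

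Members, classes, the 6 lists of collagen-handling genes and the marker lists were chosen with earlier results of these data known. Values were to be given for the leading members of each class, the members with the smallest p, those of the fibrillar, basement membrane and FACIT classes above the filter, neighbouring pairs, and the 3 genes with the smallest p of each handling list.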

Additional observations from a re-analysis of the deposited data

How the results depend on the processing

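No collagen and no collagen-handling gene passed an adjusted p of 0.05 under any of the alternatives run, edgeR with 1 library left out included. Over all genes, the count past the threshold, 3 in the edgeR result given, was 31 by DESeq2, 6 and 9 by limma on log2 FPKM with pseudocounts of 1 and 0.1, 8 without a filter, 1 with transcripts as features (added after the data had been seen) and 4 with the replicate number as a block, and 2 to 6 with 1 library left out; the cause was not tested. Same-numbered libraries deviated together with a correlation of 0.0999 over 14760 genes and 0.28 over the 38 collagens, over only 2 pairs, so the numbers were not taken to pair the libraries; with the block 0 collagens were called and their median log2 fold change was 0.066. That median, 0.11, ran from -0.16 to 0.30 with 1 library left out, so its sign depended on the libraries kept. The SD of the collagen median between the Dnmt3l-KO libraries was 0.32. That SD and this range both follow from the gap between the Dnmt3l-KO libraries, so neither is a check on the other. The number of collagens at an unadjusted p under 0.05, 0 by edgeR on all 4 libraries, was 1 to 11 with 1 library left out. Of 560 pairs of a named gene and an alternative that kept all libraries, 16 changed sign, all of them small or on few counts: Col4a5 (-0.00065 on library totals, -0.012 with upper quartiles), Col11a1 (-0.013 by limma-voom, -0.017 with the block), Col3a1 (-0.0019 and -0.013, likewise), Col5a3 (-0.066 and -0.048), Col9a1 (-0.46 and -0.16), and on log2 FPKM with pseudocounts of 1 and 0.1 Col4a2 (0.038 and 0.038), Col4a6 (0.0078 and 0.015) and Col8a1 (0.00031 and 0.00034). With 1 library left out, 52 of 224 such pairs changed sign, and the log2 fold changes ran over these ranges: Col10a1 -0.90 to 0.34, Col11a1 -0.45 to 0.40, Col11a2 -0.27 to 7.24, Col12a1 -0.081 to 0.22, Col14a1 -0.30 to 0.69, Col16a1 -0.29 to 0.40, Col18a1 -0.54 to 0.58, Col19a1 -0.58 to 0.53, Col1a1 -0.27 to 0.61, Col1a2 -0.41 to 0.54, Col20a1 -0.11 to 0.35, Col23a1 -0.39 to 0.21, Col25a1 -0.39 to 0.70, Col27a1 -0.77 to 0.19, Col28a1 -0.15 to 1.03, Col2a1 -0.043 to 0.30, Col3a1 -1.14 to 1.09, Col4a1 -0.35 to 0.055, Col4a2 -0.13 to 0.12, Col4a3 -0.12 to 0.88, Col4a4 -0.41 to 1.26, Col4a5 -0.15 to 0.15, Col4a6 -0.26 to 0.19, Col5a1 -0.16 to 0.39, Col5a2 -0.38 to 0.028, Col5a3 -0.84 to 0.67, Col6a1 -0.50 to 0.83, Col6a2 -0.57 to 1.14, Col6a3 -0.37 to 0.62, Col7a1 -0.67 to 0.011, Col8a1 -0.19 to 0.11, Col9a1 -2.16 to 1.001, Col9a2 -2.63 to 0.45, Ctsk -0.60 to 0.0026, Ddr1 -0.12 to 0.47, Loxl1 -0.10 to 0.29, Mmp14 -0.12 to 0.35, Pcolce -0.080 to 0.28, Pcolce2 -0.34 to 0.0082. The upper end for Col11a2 comes with 0 counts in the WT library that remained and is no measure of size. Only 2 libraries per genotype, with wide gaps between those of Dnmt3l-KO, limit which collagen differences could be detected, and chains with few counts, such as those of type IX, are limited by depth as well.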
